A study of Mus with 2 samples.

Results

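The genes described here encode the nuclear part of respiratory complexes III and IV, their assembly factors and the cytochrome c that runs between the complexes, in bone marrow-derived macrophages (BMDMs) under M2 conditions with or without an FXR agonist. The 35 members were taken by name from what their proteins are known to do. That rule uses no measured value, but it was set with earlier results of these data known. The members were found through the RefSeq accession of each probe among 20060 genes with such a probe. They comprise 9 subunits of complex III, cytochrome c, 15 subunits of complex IV including paralogs used in other tissues, and 10 assembly factors. BMDMs came from male, 10-week-old C57BL6/J mice and were grown for 7 d with M-CSF at 10 ng/mL. IL-4 at 10 ng/mL, the cytokine used to set M2 polarization, was present in both cultures, so that they differed in the addition of 10 µM GW4064, a synthetic FXR agonist, or of its solvent DMSO for 24 h. RNA of each condition was read on 1 Agilent 1-colour array, and neither the number of mice behind a culture nor any pooling is given in the sources used here. Title, source and treatment labels give GW4064 for the treated sample, whereas its free-text description carries the DMSO wording.

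Complex III takes electrons from ubiquinol and passes them to cytochrome c, a small soluble protein of the intermembrane space, while pumping protons. Complex IV, cytochrome c oxidase, takes the electrons from cytochrome c to oxygen and ends the chain. Both are built around subunits made inside the mitochondrion and completed with nuclear-encoded subunits, heme and copper that dedicated assembly factors insert, and alternatively activated macrophages are known for their reliance on oxidative metabolism.

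With a single array per condition there was no replicate error and no p-value, and precision is limited by the number of arrays throughout. A "scaled signal" is the background-subtracted brightness of a probe divided by the 75th percentile of its array, so that 1 marks that percentile, and a difference is the log2 scaled signal with GW4064 minus that with DMSO. Since probes bind with different strength, transcript levels were compared between arrays and not between probes. Probes were sorted by signal to form classes of brightness and to pick the brightest probe of a gene. Sums over markers give most weight to their brightest probes. Of the macrophage markers, 6 of 7 had a matched probe and all 6 were well above background on both arrays, with differences between -0.25 and 0.089 and a summed scaled signal of 277 with DMSO and 252 with GW4064. Of the 4 M2 markers 3 were higher and 1 lower. Arg1, which encodes arginase, went from a scaled signal of 4.03 to 57.1 (3.82) and Retnla from 27.1 to 50.9 (0.91), whereas Chil3 read 126 and 132 (0.066) and the mannose receptor gene Mrc1 read 30.1 and 23.7 (-0.34). Markers of other cells were also seen. The 5 measured of 6 stromal markers were all lower with GW4064 (-0.58 to -0.99, summed scaled signal 11.6 and 6.12), with Lum not well above background, and so were the 4 neutrophil markers with a probe (-0.34 to -0.94, summed 11.0 and 6.80). For T cells Cd3g and Cd8a, and for B cells Cd79a, were not well above background, and 2 markers of each list were measured. The B cell marker Ms4a1 stood well above background with DMSO only. Sums over all T cell marker probes, dim ones included, were 1.27 and 1.19, and over all B cell marker probes 0.278 and 0.200. Their part in the values below was not tested, and fewer cells of a type and less RNA per cell cannot be told apart.

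Transcripts of complexes III and IV differed little between the cultures, and most were slightly higher with GW4064 on the 75th percentile scale but lower after centring on the added spike-in RNA. Of the 34 members measured, 29 were higher and 5 lower, where 51.6% of the 13532 genes measured were higher and 48.2% lower, and with spike-in centring 4 were higher and 30 lower. No member reached a log2 difference of 0.32 in size (25% higher or 20% lower), which 9.84% of all measured genes reached upward and 10.6% downward, and none passed 2-fold, which 2.04% passed upward and 2.71% downward. The median over the members was 0.066, a level 4.65% higher, beside 0.0068 over all genes. Centring on the spike-in RNA moved the median of all genes to -0.18 and that of the members to -0.12, so that the members lay 0.058 above all genes there and 0.059 above them on the 75th percentile scale. The members ranged from -0.20 for Surf1 to 0.31 for Sco1, which is a change of -12.8% to 24.3%.

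**Figure D1:**
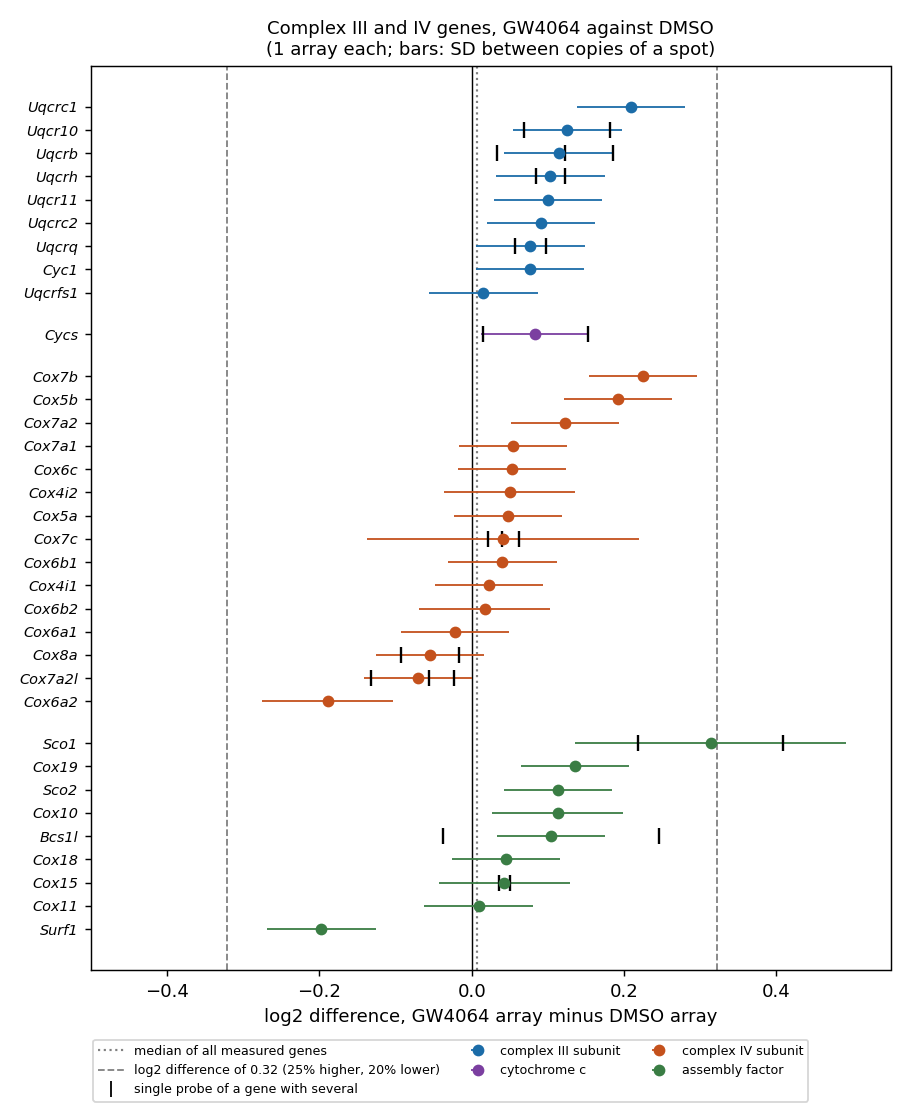
Log2 difference (GW4064 array minus DMSO array, 75th percentile scale) of the 34 measured members, grouped by role. Dots are gene means and ticks the single probes of genes with several. Bars give the SD between copies of a single spot at that signal level, the largest where a gene has several probes. Dashed lines mark a log2 difference of 0.32 in size and the dotted line the median of all measured genes. All dots lie inside the dashed lines, 29 of them above 0 (4 with spike-in centring), and complex III lies wholly above 0 on this scale, whereas complex IV spans it.

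Brighter genes had a narrower spread in the whole data as well. The interquartile range was 0.087 over the members and 0.25 over all genes. Among the 5041 genes with a scaled signal over 1 at every probe on both arrays it was 0.186, and 4.21% of those reached 0.32 upward and 3.41% downward. The 27 members of that class had an interquartile range of 0.083, with 23 of them higher on the 75th percentile scale (85.2%), where 54.5% of all genes in the class were higher. In this class the median was 0.077 over the members and 0.014 over all genes.

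The subunits of complex III were the most uniform group, with all 9 higher and a median of 0.10. However, 1 of them was lower after a loess of the difference on the level and 8 of them with spike-in centring (median -0.087). With quantile normalization all 9 were still higher, but their median fell to 0.029, below the 0.037 of the complex IV subunits. Which of these complexes had the higher median therefore depended on the normalization. Uqcrc1, a core subunit on the matrix side, went from a scaled signal of 8.66 to 10.0, a difference of 0.21 and the largest of the group except where spots marked by the software were kept, which put Uqcr10 at 0.31. Its partner core subunit Uqcrc2 was printed 10 times. The copies gave a mean scaled signal of 15.1 with DMSO and 16.1 with GW4064, a difference of 0.091, and 9 of 10 copies were higher, between -0.035 and 0.17 with an SD of 0.070.

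The redox subunits carry the electrons. Cyc1, the heme-bearing cytochrome c1, read 22.8 and 24.0, a difference of 0.077. Uqcrfs1, the Rieske iron-sulfur protein, read 11.4 and 11.5, and its difference of 0.015 was the smallest in complex III and turned to -0.013 with the loess.

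The remaining subunits of complex III are small proteins at its edge. Uqcr10 had 2 probes with unmarked spots, which read 7.72 and 8.10 and 22.0 and 24.9, for a mean difference of 0.13, and 0.31 with marked spots kept. Uqcrb, which lies near the ubiquinone site, had 3 probes with differences of 0.034, 0.12 and 0.19 and a mean of 0.11. The hinge protein Uqcrh, which helps cytochrome c to dock, gave 40.8 and 43.2 at one probe and 23.1 and 25.1 at the other, a mean difference of 0.10. All unmarked probes of these genes were higher on the GW4064 array. Uqcr11 read 32.0 and 34.3, a difference of 0.10. Uqcrq read 42.2 and 43.9 at one probe and 10.6 and 11.4 at the other, a mean difference of 0.077.

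Cycs, the somatic cytochrome c, had a mean difference of 0.083 and -0.10 with spike-in centring. One of its probes read 8.48 and 8.56 and the other 26.0 and 28.9, so that the probes differed (0.014 and 0.15), and another probe did not stand well above background.

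Complex IV was mixed, with 11 subunits higher and 4 lower and a median of 0.041, which became 8 and 7 with quantile normalization, 9 and 6 with the loess, and 2 and 13 with spike-in centring (median -0.15). The highest, except where spots in areas with large spot differences were left out and it had no value, was Cox7b, which read 34.9 with DMSO and 40.8 with GW4064, a difference of 0.23. Cox5b, the zinc-binding subunit, followed with 31.0 and 35.4, a difference of 0.19. These and Uqcrc1 were the only subunits of complex III or IV that were also higher with spike-in centring, by 0.037, 0.0045 and 0.022.

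Apart from Cox7b and Cox5b, most of the broadly expressed subunits of complex IV lay close to 0. Cox4i1, which joins Cox5a early in assembly, read 92.6 and 94.0, a difference of 0.022. Cox5a read 90.2 and 93.2, a difference of 0.047. Cox6a1 read 167 with DMSO and 164 with GW4064, a difference of -0.022. Cox6b1, which contacts cytochrome c on the intermembrane side, read 5.85 and 6.02 (0.040), and Cox6c read 31.8 and 33.0 (0.053). Cox7a2 was further from 0, at 19.8 and 21.5 and a difference of 0.12. For Cox7c the 3 probes gave 0.062, 0.039 and 0.021 with a mean of 0.041. Both probes of Cox8a were lower, with 99.5 and 93.3 at one and 83.5 and 82.5 at the other, and a mean of -0.055.

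Cox7a2l, known as the gene of a supercomplex factor of complexes III and IV, was lower at each of its 3 probes. They read 11.1 and 10.1, 43.4 and 41.7, and 32.2 and 31.7, for a mean of -0.070. It kept this sign under every setting tried, as did Cox6a1, Cox8a, Cox6a2 and Surf1. Whether the product of Cox7a2l joins these complexes in the C57BL6/J cells used here was not tested.

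Several complex IV subunits come as a pair of genes, one broadly expressed and one known from muscle, lung or testis. Cox6a2, the heart and skeletal muscle form of Cox6a1, read 0.902 with DMSO and 0.791 with GW4064, a difference of -0.19 that was 0.17 below that of Cox6a1. The other muscle form, Cox7a1, went the other way, from 1.07 to 1.11 (0.055), which was 0.068 below Cox7a2. Of the striated muscle markers, Ckm, Myh1 and Mb were not well above background and Acta1 read 0.0670 and 0.0344. Cox4i2, known from lung, read 0.109 and 0.113, a difference of 0.050 that was 0.028 above that of Cox4i1. Cox6b2, known from testis, read 0.151 and 0.153, a difference of 0.017 that was 0.023 below that of Cox6b1. Among these pairs, the difference between members was largest for Cox6a2 against Cox6a1, at -0.17. Cox7a2l, which is not a tissue form of this kind, lay further from Cox7a2, at -0.19.

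**Figure D2:**
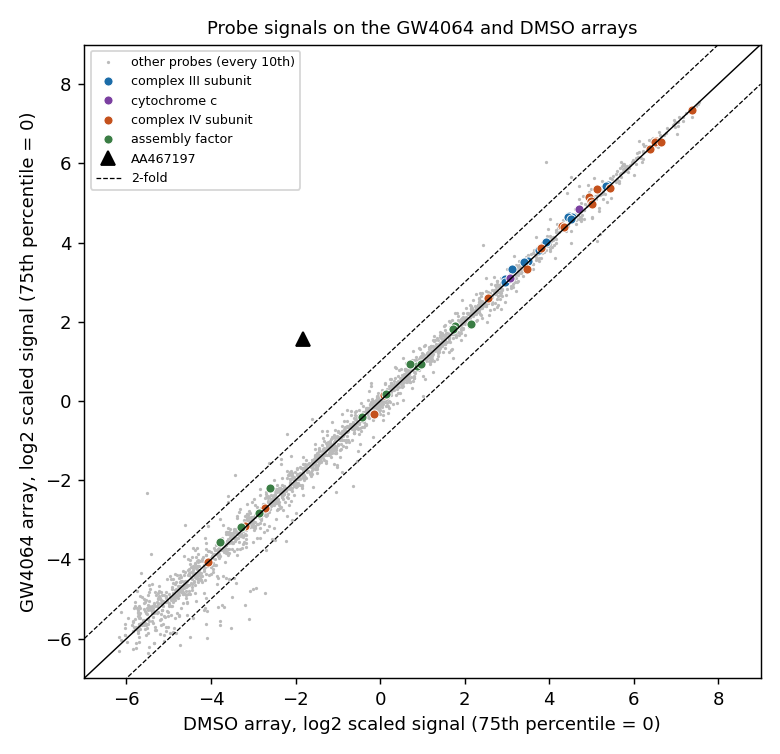
Log2 scaled signal of each probe on the DMSO array (horizontal axis) and the GW4064 array (vertical axis), with 0 at the 75th percentile, member probes coloured by role, AA467197 as a triangle and every 10th other probe in grey; the solid line marks equal signal and the dashed lines 2-fold. Member probes follow the solid line from dim to bright, and AA467197 lies far above it with scaled signals of 0.283 and 2.94.

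Of the 10 assembly factors 9 were measured, with 8 higher and 1 lower and a median of 0.10, which became 0.020 with 5 higher and 4 lower under a normexp background correction and -0.083 with 1 higher and 8 lower under spike-in centring. With only the brightest probe of each gene the median was 0.045, with 7 higher and 2 lower. Copper delivery to complex IV needs Cox17, Sco1, Sco2, Cox11 and Cox19. Both probes of Cox17, the copper chaperone at the start of this route, lay below that limit on both arrays (not well above background), and no difference is given. Sco1, which helps to load the copper site of the second subunit, read 0.164 and 0.217 at one probe and 0.0728 and 0.0847 at the other. Its mean of 0.31, the highest of all members except under normexp (Sco1 0.21, Uqcrc1 0.22), lay just inside the limit of 0.32, and its first probe, at 0.41, was the only unmarked member probe beyond it. Its signals were low on both arrays. Sco2 read 3.28 and 3.55 (0.11), Cox19 read 3.39 and 3.73 (0.14), and Cox11 read 1.82 and 1.84 (0.0090).

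Cox10 and Cox15 make the heme A of complex IV. Cox10 read 0.103 and 0.111, a difference of 0.11, and the 2 probes of Cox15 gave 0.035 and 0.050. Cox18, which helps to insert the second subunit into the membrane, read 1.11 and 1.14, a difference of 0.045. Surf1, an early complex IV assembly factor in which loss is a known cause of Leigh syndrome, read 4.43 with DMSO and 3.87 with GW4064, and its difference of -0.20 was the lowest of all members, except that Cox6a2 was lower under normexp (-0.24, Surf1 -0.13) and Cox17 without a filter on dim probes (-0.47). Bcs1l, the ATPase that places the Rieske protein in complex III, had probes that disagreed. One read 1.96 and 1.91 (-0.038) and the other 1.63 and 1.93 (0.25). Their mean of 0.10 was also the median of the measured assembly factors.

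How far these values exceed the error of reading a spot could be judged from 234 probes printed in several copies and well above background. Over the copies of such a probe the difference had a median SD of 0.077, which fell from 0.178 at scaled signals under 0.1 to 0.071 over 1. This error covers the reading of spots on these arrays and no variation between cultures. The differences of 5 members exceeded 2 such SDs, with Uqcrc1, Cox5b and Cox7b higher and Surf1 and Cox6a2 lower. Those of 15 members were within 1 SD. Each SD is a median over probes, and the 95th percentile was 0.128 at scaled signals over 1 and 0.171 between 0.1 and 1. The share of all genes past these limits is not given here, so these counts are not read as a result about the members. These SDs are of a single spot, also for members averaged over several spots or probes, such as Uqcrc2 with 10 copies. The largest SD among the probes of a member was taken. Sco1, at 0.31, was thus set against 0.178 from its dimmer probe, whereas its brighter probe gave 0.41 against 0.086. Against the error that Feature Extraction itself assigns, 0.20 to 0.23 for a difference, 4 of 48 measured member probes exceeded it. Over probes, 39 of these 48 were higher and 9 lower on the 75th percentile scale. Of the 11 members with several measured probes, 10 had all of them in one direction, Bcs1l being the exception, with a median SD over probes of 0.056. The matching shares over all probes and over all genes with several probes are not given here. These probe counts are not read as a result about the members either.

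Parts of the slide had clusters of spots that differed 8-fold or more between the arrays, and the areas with 2 or more such other spots within 300 µm held 16.5% of the spots. A spot of 9 members lay there, namely Uqcrc2, Uqcrb, Uqcrh, Cycs, Cox17, Cox5a, Cox6b1, Cox7a2 and Cox7b, and for the last 4 it was the only probe. With such spots left out, 25 of the 30 members still measured were higher and 5 lower, and the median was again 0.066. No member spot was saturated.

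Among 38 further genes of complexes III and IV, 29 were measured, with 21 higher and 8 lower and a median of 0.069, against 5 higher and 24 lower with spike-in centring (-0.12). AA467197, a paralog of the complex IV subunit Ndufa4 whose product is known to take its place in inflammation, rose from a scaled signal of 0.283 to 2.94, a difference of 3.38 and a 10.4-fold change at its single probe, ranking 16 among all genes measured by increase. It stayed between 3.11 and 3.38 under the settings tried, and 0 spots differing 8-fold lay near it. Ndufa4 itself read 16.1 and 16.5, a difference of 0.031 that became -0.0048 with the loess and -0.16 with spike-in centring, which left the paralogs 3.34 apart. Ndufa4l2 did not stand well above background with DMSO or GW4064.

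Without AA467197 the median of these further genes was 0.061. Higd1b, a relative of a respiratory supercomplex factor, rose by 0.42 from 0.0292 to 0.0391, at a low signal. The assembly factor Cox16 gave 0.38 as a mean of disagreeing probes, a dim one at 0.74 (0.0261 and 0.0435) and a bright one at 0.023 (7.07 and 7.19), both in areas with large spot differences. Next in size were Cox20, which assists the second subunit of complex IV, at 5.04 and 6.08 (0.27), and Hccs, which attaches heme to cytochrome c, at 79.3 and 68.0 (-0.22), both named after their values were seen. The 4 mitochondrially encoded genes of these complexes had no probe matched by accession and are not analysed here.

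The medians of the other respiratory complexes were likewise small, above 0 on the 75th percentile scale and below 0 with spike-in centring. In complex I, 23 of 36 measured genes were higher and 13 lower with a median of 0.076 (7 higher, 29 lower and -0.11 with spike-in centring), and Ndufb4 and Ndufa2, both accessory subunits, passed 0.32 at 0.33 each. Both had a spot in an area with large spot differences, and for Ndufb4 the probe outside it gave 0.11 and the one inside it 0.56. Ndufb8 was next at 0.24, and its only probe lay in such an area as well. In ATP synthase 14 of 16 genes were higher with a median of 0.078 (1 higher and -0.11 with spike-in centring), led by Atp5o at 0.21, Atp5e at 0.13 and Atp5f1 at 0.11. In complex II 7 of 8 were higher with a median of 0.042 (3 higher and -0.15 with spike-in centring, and 3 higher and -0.050 with normexp), and the largest were Sdhc at 0.23, Sdhaf2 at -0.21 and Sdhaf1 at 0.21. The value of Sdhc was a mean of 0.43 at a probe in an area with large spot differences and 0.032 at a probe outside it. Of 12 regulators of respiratory genes 11 were measured, 7 higher and 4 lower with a median of 0.034 (0 higher and -0.15 with spike-in centring, and 5 higher and -0.0097 with normexp). None of them reached 0.32 in size. Gabpb1, a subunit of the GABP or NRF2 factor, gave 0.14, Yy1 0.13 and Nrf1 0.12, and the coactivator gene Ppargc1a was not well above background. Gabpb1 averaged 0.26 at a dim probe in an area with large spot differences and 0.0068 at a brighter probe outside it. Nrf1 averaged 0.19 and 0.12 at dim probes and 0.034 at a brighter one, which lay in such an area.

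**Figure D3:**
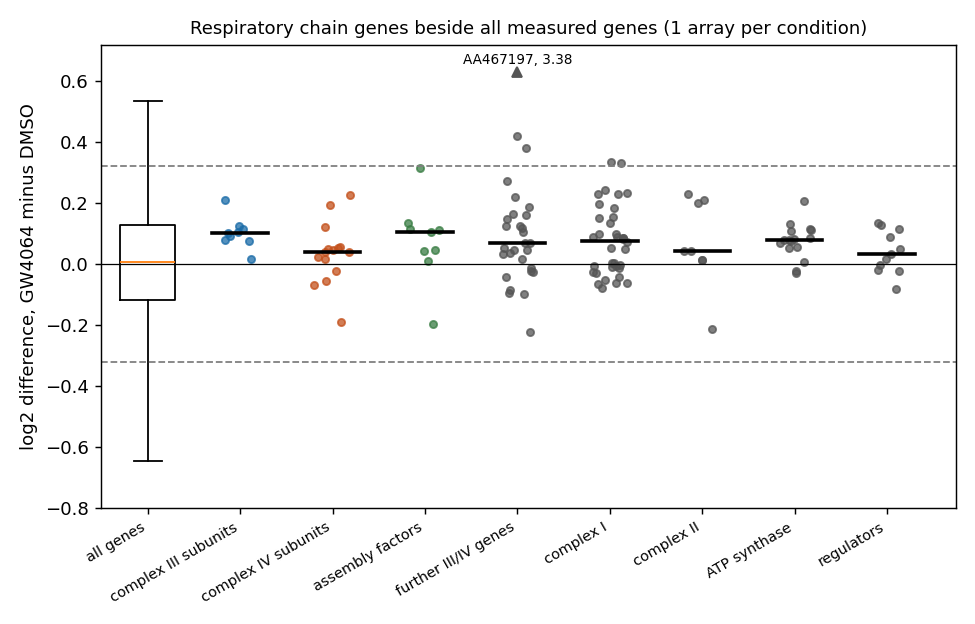
Log2 difference (GW4064 minus DMSO, 75th percentile scale) of the genes of each list (dots) with the median of the list (bar), beside all measured genes (box of quartiles, whiskers from the 5th to the 95th percentile); dashed lines mark 0.32 in size and AA467197 is off the scale at 3.38. Every list median lies between 0.034 and 0.10 on this scale, and all lie below 0 with spike-in centring.

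The direction of the members therefore depended on how the arrays were made comparable. The spike-in RNA, read by 8 probes, was itself higher on the GW4064 array by a median of 0.19 (0.034 to 0.24) on the 75th percentile scale, and centring on it made 18.2% of all genes higher. Under it only Uqcrc1, Cox5b, Cox7b and Sco1 remained above 0. In all other settings tried the median of the members lay between 0.040 and 0.068 and above that of all genes, 19 members were higher in each setting, and the 5 lower members were lower in each. Most of these settings start from the same intensities, and the share of all genes that kept their direction is not given here. The counts of 19 and 5 are therefore not read as a result about the members.

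**Figure D4:**
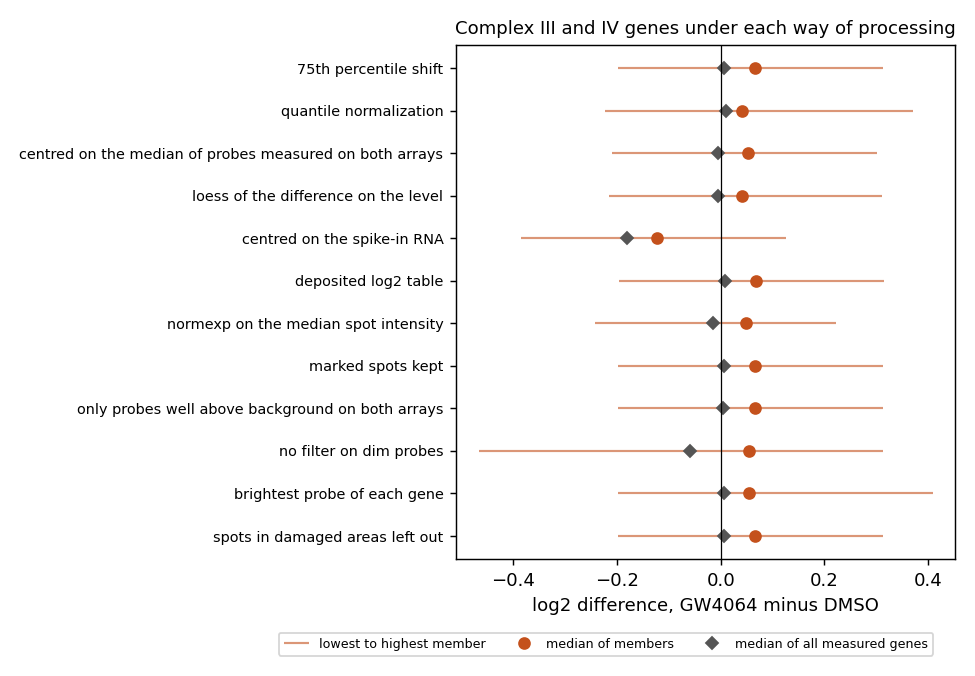
Median log2 difference of the members (circles, with a line from the lowest to the highest member) and of all measured genes (diamonds) under each of 12 ways of processing. The circle lies to the right of the diamond in every row, and both lie left of 0, at -0.12 and -0.18, with spike-in centring.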

How the data were processed

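The authors deposited 1 Agilent Feature Extraction file per array, holding spot intensities after background subtraction and detrending within the array (version 10.7.1.1, per the submitters' processing notes), and a deposited log2 table whose baseline is not stated. The difference between the columns of that table equalled the one computed here for all 39200 probes compared, within 0.001 of a constant of 0.0022. Position and quality marks of each spot were also used as deposited. From the intensities, log2 signals minus the 75th percentile of each array over 43020 non-control spots (signals of 1209 for DMSO and 1265 for GW4064) were computed. Spots marked as uneven or as outliers among copies were left out and copies averaged. A probe well above background (57.4% of probes with DMSO, 58.5% with GW4064) on 1 array only was set to its bound on the other, and a gene is the mean over its measured probes. Of 39429 probes, 26445 matched RefSeq accessions of GRCm38.p6. The array was designed on another build, so no coordinates are given. Differences are described by size, at 0.32 on the log2 scale and at 2-fold, with no test. The members, the lists and the alternative that leaves out areas of the slide were chosen with earlier results of these data known. Named in the text are all members, isoform pairs, AA467197, Ndufa4 and Ndufa4l2, the 3 genes of largest difference in each further list (Cox20 and Hccs were added after their values were seen), and markers, of which 1 is not reported here. The calculations were tested on simulated data. Alternatives were other normalizations, background corrections, filters, probe choices and thresholds. Normexp was run with limma 3.58.1 in R 4.3.3. All other steps ran in Python 3.11.15, with pandas 2.3.3 and numpy 2.4.6 for the tables, statsmodels 0.14.6 for the loess, scipy 1.17.1 for distances between spots and matplotlib 3.10.9 for the plots.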

Additional observations from a re-analysis of the deposited data

How the results depend on the processing

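Spike-in centring changed most. It gave a members' median of -0.12, with 4 higher and 30 lower, 2 of them by a log2 difference of 0.32 or more, and medians of -0.087 for complex III, -0.10 for cytochrome c, -0.15 for complex IV, -0.083 for the assembly factors, -0.12 for further complex III and IV genes, -0.11 for complex I, -0.15 for complex II, -0.11 for ATP synthase and -0.15 for the regulators. The number of members lower was 8 with quantile normalization, 9 with the loess and 9 with normexp, which also gave 0.020 for the assembly factors and -0.050 for complex II. Quantile normalization and the brightest probe of each gene each put 1 member, Sco1, at 0.32 or more. Keeping marked spots moved 1 member, Uqcr10, from 0.13 to 0.31. Without a filter on dim probes 1 member, Cox17, was lower by more than 0.32 (at -0.47) and Cycs was at 0.19. At a threshold of 1.1-fold, 4 members were higher and 2 lower. For this threshold, and for 0.32 under the other settings, the share over all genes is not given here. The quartiles of all measured genes on the 75th percentile scale were -0.12 and 0.13, so these counts are not read as a result about the members. The members' median minus that of all genes, a measure added after the data were seen, lay between 0.031 (quantile normalization) and 0.11 (no filter). Of 370 values of single members under other settings, 46 moved by more than the SD between copies. The cause of these shifts was not tested. No paired analysis was possible because the conditions have 1 array each, and for the same reason no replicate could be left out. Naming probes by a gene name column of the scanner files was not run, since these files hold no such column. The planned promoter motif counts and protein comparisons of isoforms were not made. Low signal limits Cox17, Sco1, Cox4i2, Cox6b2 and Cox10.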
